A study of Mus musculus with 24 samples.

Results

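Regulators of G protein signaling (RGS) speed the hydrolysis of GTP by G protein alpha subunits and so shorten the signal that a receptor starts. The mRNA of 10 of them, *Rgs2*, *Rgs4*, *Rgs7*, *Rgs8*, *Rgs9*, *Rgs10*, *Rgs14*, *Rgs16*, *Rgs17* and *Rgs20*, was followed by gene symbol through 24 libraries of mouse brain. Each gene had 1 row in each of 8 tables of normalized counts, which together hold 30270 genes. The animals were wild-type mice (VDR+/+) and mice lacking the vitamin D receptor (VDR-/-, written Vdr-/- here), both on a C57BL/6 background, injected intraperitoneally with PBS or with morphine at 5 mg/kg. Bilateral micropunches of frozen nucleus accumbens and ventral tegmental area (VTA) gave 8 groups of 3 libraries. The paper states a time of 90 min after the injection for sequencing of the accumbens and gives none for the VTA. The question was whether these genes differed between the regions, with loss of the receptor, or with morphine. The food of the Vdr-/- mice held added calcium and lactose, per the study's methods, which is not stated for wild-type mice, so diet and genotype cannot be told apart. The mice carry the same numbers in both regions, namely 1, 2 and 3 for wild-type PBS, 7, 8 and 9 for Vdr-/- PBS, 1.0, 1.1 and 1.2 for wild-type morphine, and 2.0, 2.1 and 2.2 for Vdr-/- morphine. Age and sex are not given in the labels used here.

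Opioid receptors act through inhibitory G proteins, and several RGS proteins limit that signal in the striatum and midbrain. *Rgs2*, *Rgs4*, *Rgs8* and *Rgs16* encode small members of the R4 subfamily, of which RGS2 prefers Gq and the others act on Gi and Gq. *Rgs7* and *Rgs9* encode members of the R7 subfamily, which are stabilized by the G beta subunit encoded by *Gnb5* and anchored to membranes by the products of *Rgs7bp* and *Gpr158*. RGS9 has a long splice form that is abundant in the striatum and limits opioid and dopamine receptor signaling. *Rgs10* and *Rgs14* belong to the R12 subfamily, RGS14 also carrying a GoLoco motif that binds Gi alpha subunits. *Rgs17* and *Rgs20* encode members of the RZ subfamily, which act on Gz and Gi.

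Between 9328726 and 30184426 reads per library fell on genes. *Vdr* held 1 to 17 reads in wild-type libraries and 0 to 17 in Vdr-/- libraries, so the genotypes rest on the labels. In the nucleus accumbens the summed level of 12 medium spiny neuron markers ranged from 3851 to 7829 CPM (reads scaled to the library total), and in the VTA from 574 to 714 CPM. The sum of 10 dopamine neuron markers was 278.5 to 3456 CPM in the VTA against 62.5 to 106 CPM in the nucleus accumbens, with *Foxa1* at 0 in wild-type morphine accumbens libraries. Several libraries stood apart. For each library, the deviation of log2 CPM from the median of the other libraries of its region was rank-correlated with exon length. Wild-type PBS accumbens mouse 2 had a value of -0.364, where the others ranged from -0.202 to 0.189. These values also split by injection. In the VTA every morphine library was positive (0.0355 to 0.15) and every PBS library negative (-0.202 to -0.0297). In the accumbens morphine libraries ranged from 0.0215 to 0.189 and PBS libraries from -0.364 to 0.0376. The part of exon length in the morphine comparisons was not tested. The VTA library of Vdr-/- PBS mouse 9 held *Th*, the rate-limiting enzyme of dopamine synthesis, at 59.6 CPM, and its thalamus marker sum was 1222 CPM against 618 and 658 CPM in the other Vdr-/- PBS libraries. In the 3 VTA libraries of wild-type morphine mice *Th* was at 24.5 to 65.4 CPM, against 332 to 425 CPM in wild-type PBS mice.

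**Figure D1:**
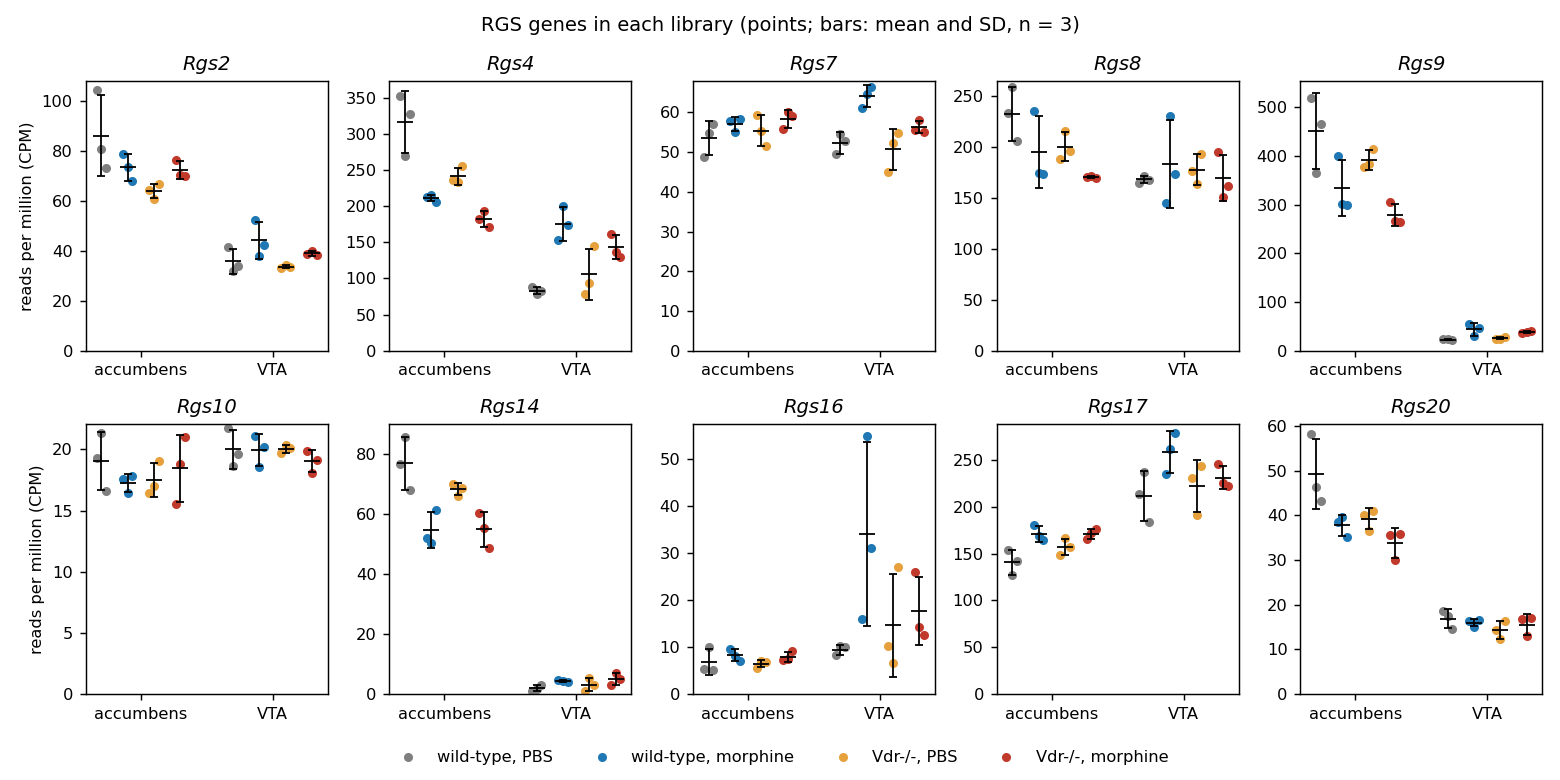
Level of each of the 10 RGS genes in CPM (vertical axis, from 0), in nucleus accumbens and VTA libraries. Points are libraries, colors are the 4 combinations of genotype and injection, and bars are the mean and SD (n = 3). *Rgs9* and *Rgs14* stood far lower in every VTA library, and *Rgs16* was at 55.0 CPM in 1 wild-type morphine library of the VTA.

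Levels of different genes were compared per length, as RPKM (CPM divided by the annotated exon length in kilobases). In the nucleus accumbens *Rgs4* had the highest RPKM (median 72.2, range 55.4 to 113.5, 12 libraries), followed by *Rgs9* (median 58.2, range 41.4 to 81.3). The RPKM ranges of these 2 genes overlapped, although *Rgs4* was higher than *Rgs9* in 12 of 12 libraries. *Rgs8* (median 19.9), *Rgs17* (19.9), *Rgs2* (19.8), *Rgs14* (15.0), *Rgs10* (10.3), *Rgs7* (9.37) and *Rgs20* (9.22) came next in RPKM, each overlapping its neighbour in this order. *Rgs16* was lowest, with a median RPKM of 3.05 and a range of 2.22 to 4.30 that did not reach that of *Rgs20*. The only other gap without overlap lay between *Rgs9* and *Rgs8*.

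In the VTA *Rgs4* again had the highest median RPKM (43.1, range 25.1 to 64.7), followed by *Rgs17* (28.1) and *Rgs8* (17.6). *Rgs10* (median RPKM 11.6), *Rgs2* (10.5), *Rgs7* (9.14), *Rgs16* (5.76), *Rgs9* (4.59) and *Rgs20* (3.86) followed, each overlapping the next. *Rgs14* was lowest (median 0.84 RPKM, range 0.239 to 1.65) and rested on 19 to 123 reads per library. Neighbours whose ranges did not overlap were *Rgs8* and *Rgs10*, and *Rgs20* and *Rgs14*. *Rgs16* ranged from 2.82 to 23.5 RPKM, while *Rgs10* stayed between 10.6 and 12.7 RPKM.

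**Figure D2:**
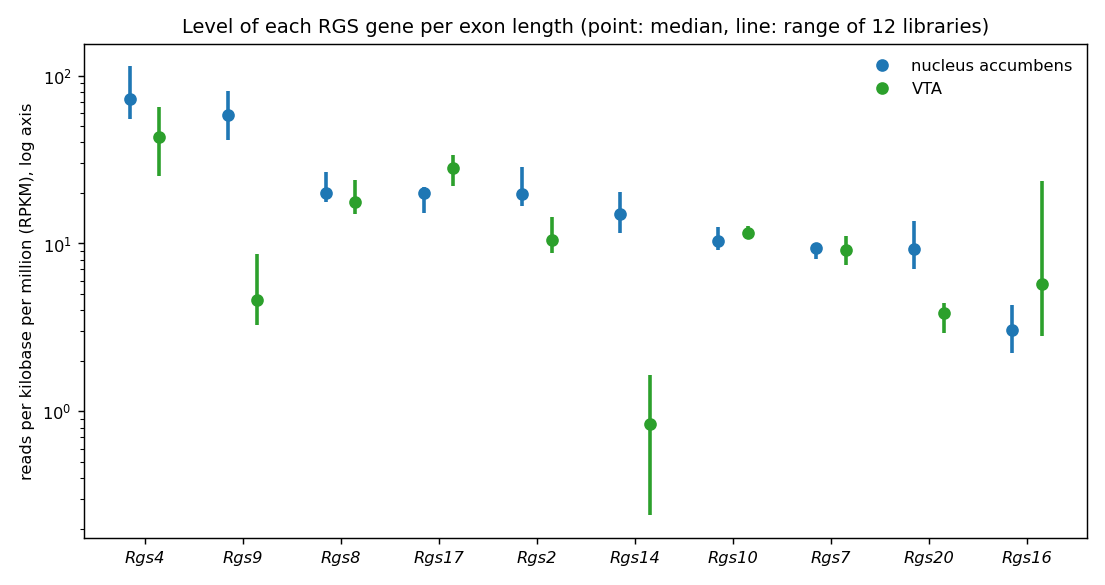
RPKM of the 10 RGS genes on a log axis, ordered by their median in the nucleus accumbens. Points are medians and lines the range of 12 libraries per region. The lines of *Rgs9*, *Rgs14*, *Rgs2*, *Rgs20* and *Rgs17* in one region do not reach those in the other.

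Of the 10 genes 6 lie on chromosome 1 (*Rgs2*, *Rgs4*, *Rgs7*, *Rgs8*, *Rgs16* and *Rgs20*, GRCm38, GENCODE M21). *Rgs8* (chr1:153653025-153700323) and *Rgs16* (chr1:153740349-153745468), on the same strand, are 40025 bases apart. *Rgs9* is on chromosome 11 (chr11:109225355-109298129), *Rgs10* on 7, *Rgs14* on 13 (chr13:55369732-55384687) and *Rgs17* on 10. Exons of *Rgs20* overlap 127 bases of *Atp6v1h* exons on the opposite strand, which is 3.00% of the *Rgs20* exon length. The library kit was directional, but the strand setting of the counting is not stated, so reads in that overlap cannot be assigned.

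Promoter windows were at hand for 8 of the 10 genes (RefSeq, GRCm38.p6), and the 250 bases before the start are printed for the R4 genes *Rgs4*, *Rgs8* and *Rgs2* and for *Rgs9*. *Rgs4*, *Rgs8* and *Rgs9* are shown because they fell together after morphine in Vdr-/- accumbens, and *Rgs2* because it did not. The windows, each on the strand of its gene and read 5′ to 3′, are chr1:169747643-169747892 (minus strand) for *Rgs4*, chr11:109298182-109298431 (minus) for *Rgs9*, chr1:153652787-153653036 (plus, the first of 3 starts) for *Rgs8* and chr1:144004150-144004399 (minus) for *Rgs2*. Capitals mark the core TGACG of the cAMP response element, printed as CGTCA where it is on the other strand, and TATAAA.
Rgs4: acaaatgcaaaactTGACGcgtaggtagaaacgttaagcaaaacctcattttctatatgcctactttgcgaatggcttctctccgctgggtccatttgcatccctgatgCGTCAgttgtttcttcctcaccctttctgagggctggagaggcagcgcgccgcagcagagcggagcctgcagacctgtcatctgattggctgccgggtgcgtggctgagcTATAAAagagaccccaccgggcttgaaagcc
Rgs9: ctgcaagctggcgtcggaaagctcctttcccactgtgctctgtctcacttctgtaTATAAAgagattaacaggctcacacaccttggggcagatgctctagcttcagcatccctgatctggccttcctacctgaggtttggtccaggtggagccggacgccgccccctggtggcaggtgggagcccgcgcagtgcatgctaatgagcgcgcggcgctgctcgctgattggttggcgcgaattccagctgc
Rgs8: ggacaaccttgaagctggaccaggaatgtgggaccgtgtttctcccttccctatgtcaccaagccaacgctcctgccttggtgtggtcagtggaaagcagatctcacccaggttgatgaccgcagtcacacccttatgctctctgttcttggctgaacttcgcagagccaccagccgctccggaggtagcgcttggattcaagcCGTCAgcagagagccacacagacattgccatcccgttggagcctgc
Rgs2: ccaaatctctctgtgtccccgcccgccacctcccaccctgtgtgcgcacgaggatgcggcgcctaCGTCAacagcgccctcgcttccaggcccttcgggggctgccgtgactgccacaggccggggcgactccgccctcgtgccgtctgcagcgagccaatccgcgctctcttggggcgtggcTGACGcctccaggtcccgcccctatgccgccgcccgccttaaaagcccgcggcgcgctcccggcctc

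The *Rgs4* window held TATAAA beginning 31 bases before the start, and TGACG at 236 bases on the gene's strand and at 141 bases on the other. *Rgs2* had TGACG at 185 bases (other strand) and 67 bases (own strand), and *Rgs8* had 1 at 46 bases (other strand). In the *Rgs9* window the search found TATAAA at 195 bases and no TGACG. The windows not printed, those of *Rgs7*, *Rgs10*, *Rgs16*, *Rgs17* and the later *Rgs8* starts, held no TGACG. *Rgs7*, *Rgs10*, *Rgs16* and *Rgs17*, like *Rgs2*, did not pass the threshold after morphine in Vdr-/- accumbens. None of the 10 windows of the 8 genes held the full element TGACGTCA, and the AP-1 motif TGANTCA occurred once, in *Rgs17*. Searched on both strands, TGACG occurred in 17.8%, TATAAA in 12.4%, TGANTCA in 6.75% and TGACGTCA in 1.55% of 32851 windows of the same length, where TGACG is also contained in TGACGTCA. A match describes the letters only and does not show binding.

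Between the regions the levels of 8 of the 10 genes differed, 6 being higher in the nucleus accumbens and 2 higher in the VTA. Of all 16147 genes tested in this comparison, 73% passed the same threshold, so the share of these genes is close to that of genes at large. The difference was largest for *Rgs14* and *Rgs9*. *Rgs9* ranged from 264.8 to 519.6 CPM in the 12 accumbens libraries and from 21.0 to 55.6 CPM in the 12 VTA libraries, with no overlap. Its log2 difference (accumbens minus VTA) was 3.57 ± 0.08 (SE; limma, adjusted p = 6.68e-19). *Rgs14* ranged from 48.9 to 85.8 CPM in the accumbens and from 1.01 to 6.98 CPM in the VTA, a log2 difference of 4.39 ± 0.20 (adjusted p = 4.79e-14). In bulk tissue, fewer cells of a type and less RNA per cell cannot be told apart. The 12 medium spiny neuron markers were all higher in the accumbens, with a median log2 difference of 3.88, and their part in the differences of these genes was not tested.

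*Rgs20* (log2 difference 1.40 ± 0.06, adjusted p = 4.14e-14) and *Rgs2* (1.02 ± 0.06, adjusted p = 1.04e-12) were also higher in the accumbens, without overlap of the libraries of the regions. *Rgs20* was at 29.9 to 58.1 CPM in the accumbens and 12.4 to 18.6 CPM in the VTA, and *Rgs2* at 60.7 to 104 and 31.7 to 52.4 CPM. *Rgs4* (log2 difference 1.01 ± 0.08, adjusted p = 2.54e-10) and *Rgs8* (0.25 ± 0.07, adjusted p = 0.00291) were higher in the accumbens with overlapping libraries. *Rgs17* was lower in the accumbens, at 127 to 181 CPM against 183 to 279 CPM in the VTA, a log2 difference of -0.46 ± 0.05 (adjusted p = 5.89e-08). *Rgs16* was lower too (-1.04 ± 0.21, adjusted p = 0.000161), with a VTA range of 6.60 to 55.0 CPM that overlapped the accumbens range of 5.18 to 10.1 CPM. *Rgs7* (0.07, 95% interval -0.01 to 0.15) and *Rgs10* (-0.07, interval -0.17 to 0.03) did not pass the threshold.

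Of 4 R7 partner genes tested, 3 were higher and 1 lower in the accumbens. The higher ones were *Gnb5* with a log2 difference of 1.11 ± 0.03 (adjusted p = 2.02e-18), *Rgs7bp* with 0.98 ± 0.10 (adjusted p = 9.18e-09) and *Gpr158* with 0.46 ± 0.08 (adjusted p = 2.57e-05), and the lower one was *Gpr179* with -2.65 ± 0.15 (adjusted p = 1.37e-12). Of 7 other RGS genes tested, 2 were higher and 3 lower in the accumbens, against 6 higher and 2 lower of the 10 described here. Of all 16147 genes tested, 5686 were higher and 6105 lower. The 10 genes were chosen with earlier results of these data known, and their contrast with the other RGS genes was not tested. Of 12 G beta and gamma genes, 4 were higher and 6 lower. *Gng7*, a G gamma subunit of striatal neurons and 1 of the 4, had a log2 difference of 4.02 ± 0.06 (adjusted p = 1.10e-21). Of 12 G alpha genes, 4 were higher and 5 lower, and of 16 Gi-coupled receptor genes 11 were higher and 4 lower.

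Loss of the vitamin D receptor changed none of the 10 genes past the threshold, in either region and after either injection. After PBS in the accumbens 0 of 10 genes passed, where 0.069% of all genes did. At an unadjusted p under 0.05 there were 3 of the 10, beside 1424 of all 15933 genes tested. These were *Rgs2* (-0.39 ± 0.13, adjusted p = 0.484), *Rgs4* (-0.36 ± 0.12, adjusted p = 0.485) and *Rgs20* (-0.30 ± 0.12, adjusted p = 0.543). Each had all Vdr-/- libraries below all wild-type libraries, and how many of all genes separated in this way was not counted. *Rgs2* was at 104, 80.8 and 72.9 CPM in wild-type and 64.2, 60.7 and 66.6 CPM in Vdr-/- mice. Without wild-type PBS mouse 2, the library that stood apart by exon length, the difference of *Rgs4* was -0.50 (limma, adjusted p = 0.0294), and no other gene of the 10 passed. *Rgs7* (0.07), *Rgs8* (-0.19), *Rgs9* (-0.17), *Rgs10* (-0.10), *Rgs14* (-0.14), *Rgs16* (0.01) and *Rgs17* (0.19) had log2 differences with adjusted p of 0.588 or more. In this comparison 12 of 12 medium spiny neuron and 10 of 10 oligodendrocyte markers had negative log2 differences (medians -0.26 and -0.31). Positive differences were found in 10 of 10 cortical excitatory neuron markers (median 0.32). They were found in 0 of 12 immediate early genes, 0 of 10 microglia and 1 of 10 mural cell markers (medians -0.48, -0.14 and -0.28). None of the genes of these lists passed. Their part in the RGS values was not tested.

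After morphine in the accumbens 0 of 10 passed (0.192% of all genes), with *Rgs4* (-0.21 ± 0.05, adjusted p = 0.299) and *Rgs9* (-0.24 ± 0.10, adjusted p = 0.601) at an unadjusted p under 0.05. Of all 15638 genes tested, 1209 had an unadjusted p under 0.05. The other log2 differences were -0.02 for *Rgs2*, 0.04 for *Rgs7*, -0.17 for *Rgs8*, 0.09 for *Rgs10*, 0.01 for *Rgs14*, -0.07 for *Rgs16*, 0.004 for *Rgs17* and -0.16 for *Rgs20*. Here too 12 of 12 medium spiny neuron markers had negative differences (median -0.18), none past the threshold. Positive differences were found in 11 of 12 immediate early genes (median 0.20, 1 past the threshold) and 9 of 10 cortical excitatory neuron markers (median 0.25). They were found in 0 of 10 oligodendrocyte markers (median -0.21). The part of these lists in the RGS values was not tested. The 95% intervals of the 10 genes in these 2 comparisons all lay between -0.70 and 0.59 on the log2 scale. edgeR and DESeq2 on the recovered reads also called 0 of 10 in each.

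In the VTA 0 of 10 genes passed after PBS (0.39% of all genes). None had an unadjusted p under 0.05, where 2338 of all 16425 genes tested did. The log2 differences after PBS were -0.10 for *Rgs2*, 0.27 for *Rgs4*, -0.07 for *Rgs7*, 0.06 for *Rgs8*, 0.14 for *Rgs9*, -0.01 for *Rgs10*, 0.56 for *Rgs14*, 0.36 for *Rgs16*, 0.05 for *Rgs17* and -0.26 for *Rgs20*. After morphine 0 of 10 passed (0.0624% of all genes), with *Rgs4* (-0.30 ± 0.13, adjusted p = 0.568) and *Rgs7* (-0.19 ± 0.06, adjusted p = 0.516) at an unadjusted p under 0.05. Of all 16029 genes tested, 1406 had an unadjusted p under 0.05. *Rgs7* was at 61.0, 64.7 and 66.4 CPM in wild-type and 55.6, 58.1 and 55.2 CPM in Vdr-/- mice, without overlap. How many of all genes did not overlap was not counted. The remaining log2 differences after morphine were -0.17 for *Rgs2*, -0.10 for *Rgs8*, -0.17 for *Rgs9*, -0.07 for *Rgs10*, 0.11 for *Rgs14*, -0.85 for *Rgs16*, -0.16 for *Rgs17* and -0.06 for *Rgs20*. Dopamine neuron markers had negative differences in 10 of 10 after PBS (median -1.04) and positive ones in 10 of 10 after morphine (median 1.26), and 8 of 9 thalamus markers were negative after morphine (median -0.71), none of them past the threshold. Their part in the RGS values was not tested. edgeR and DESeq2 called 0 of 10 in both VTA comparisons. Intervals were wide for *Rgs16* (-1.90 to 0.19 after morphine) and *Rgs14* (-0.81 to 1.93 after PBS), so these values leave room for a difference of more than 2-fold in either gene.

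In the accumbens of Vdr-/- mice 5 of the 10 genes were lower after morphine and none was higher past the threshold. The 5 were *Rgs9*, *Rgs4*, *Rgs8*, *Rgs14* and *Rgs20*, and the libraries of each did not overlap between the injections. Of all genes, 19.1% passed the threshold in this comparison, 1573 higher and 1445 lower (1566 to 3133 genes with 1 library left out). *Rgs9* was at 378, 384 and 414 CPM after PBS and at 305, 266 and 265 CPM after morphine. All morphine libraries lay below all PBS libraries, with a log2 fold change of -0.53 ± 0.06 (SE; limma, adjusted p = 0.000327). *Rgs4* was at 236, 233 and 255 CPM after PBS and 182, 193 and 172 CPM after morphine, a log2 fold change of -0.45 ± 0.06 (adjusted p = 0.000519). *Rgs8*, which acts on Gi and Gq, was at 188, 216 and 196 CPM after PBS and at 170.4, 172 and 169.8 CPM after morphine (-0.27 ± 0.05, adjusted p = 0.0054).

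*Rgs14* was at 70.0, 66.2 and 68.9 CPM after PBS and 60.5, 55.5 and 48.9 CPM after morphine in Vdr-/- mice, a log2 fold change of -0.36 ± 0.07 (adjusted p = 0.00666). *Rgs20* was at 40.1, 36.5 and 41.0 CPM after PBS and at 35.5, 29.9 and 35.9 CPM after morphine, a log2 fold change of -0.26 ± 0.08 (adjusted p = 0.0448). The *Rgs20* call was lost without each of 5 of the 6 libraries in turn, the adjusted p then lying between 0.054 and 0.166. This call was also lost in DESeq2 (adjusted p = 0.069) and in limma without the filter on low values (adjusted p = 0.0583). With all 12 accumbens libraries in the fit *Rgs8* (adjusted p = 0.152), *Rgs14* (0.0507) and *Rgs20* (0.183) lost their calls, while *Rgs9* and *Rgs4* passed. *Rgs2* was at 64.2, 60.7 and 66.6 CPM after PBS and 76.4, 70.4 and 69.9 CPM after morphine, higher in each morphine library but not past the threshold (0.14 ± 0.06, adjusted p = 0.12). *Rgs7* (0.04), *Rgs10* (0.03), *Rgs16* (0.24) and *Rgs17* (0.08) had log2 fold changes that did not pass, with adjusted p from 0.239 for *Rgs16* to 0.883 for *Rgs10*.

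**Figure D3:**
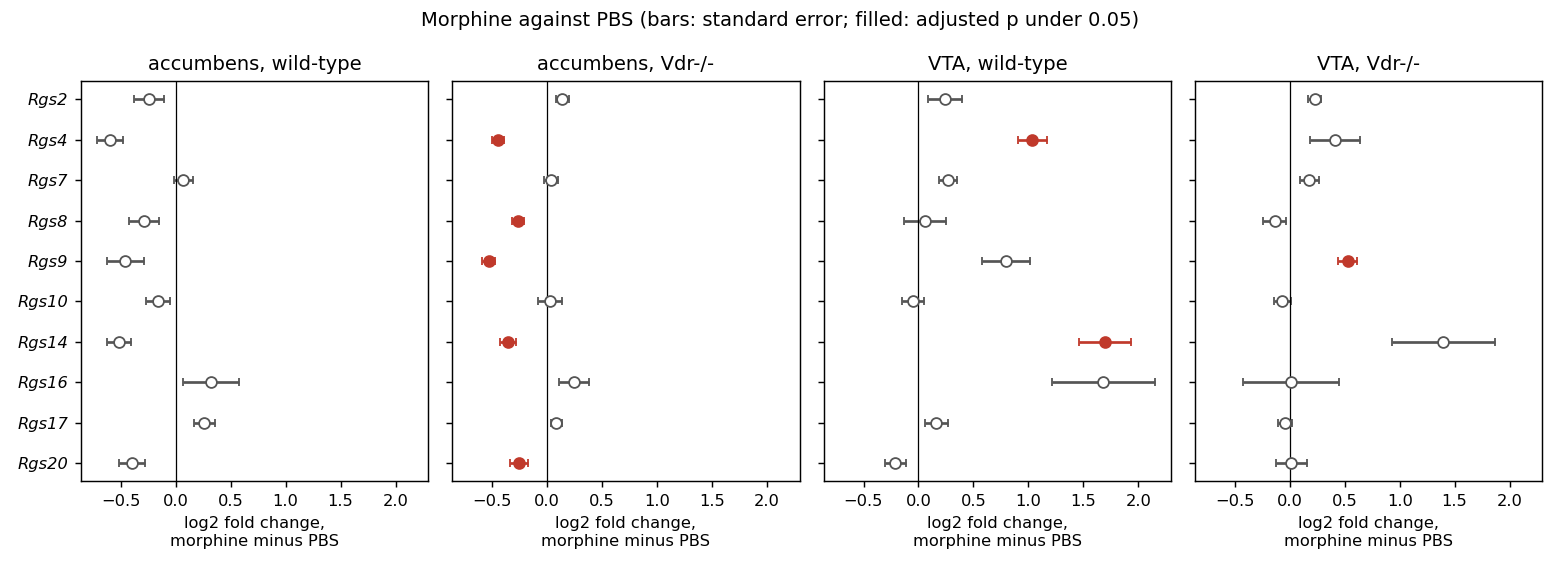
Log2 fold change of morphine against PBS (horizontal axis, same scale in each panel) for the 10 RGS genes in each region and genotype, with the standard error from limma. Filled points have an adjusted p under 0.05. The 5 filled points in Vdr-/- accumbens lie below 0, and the 3 filled points in the VTA lie above it.

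In wild-type accumbens 0 of 10 genes passed by limma, where 0.813% of all genes did (128 genes, and 0 to 627 with 1 library left out). At an unadjusted p under 0.05 there were 5 of the 10, beside 2616 of all 15749 genes tested. DESeq2 called 2 of the 10 and 493 genes in all, and edgeR 0 of the 10 and 159 in all. *Rgs4* was at 352, 269 and 328 CPM after PBS and 212, 215 and 206 CPM after morphine. All morphine libraries lay below all PBS libraries, and the log2 fold change of -0.60 ± 0.12 had an adjusted p of 0.0736 in limma. *Rgs14*, at 76.9, 85.8 and 68.3 CPM after PBS and 52.1, 50.5 and 61.5 CPM after morphine, likewise did not overlap (-0.52 ± 0.11, adjusted p = 0.0835). DESeq2 called these 2 genes, with adjusted p of 0.000892 for *Rgs4* and 0.0105 for *Rgs14*. *Rgs9* was at 519.6, 366 and 466 CPM after PBS and at 399.6, 301 and 299.7 CPM after morphine, overlapping through PBS mouse 2 (-0.46 ± 0.17, adjusted p = 0.25). Without PBS mouse 2, limma gave -0.73 (adjusted p = 0.00229) for *Rgs4*, -0.62 (adjusted p = 0.0299) for *Rgs9* and -0.46 (adjusted p = 0.0465) for *Rgs14*.

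*Rgs20* (-0.40 ± 0.12, adjusted p = 0.178) and *Rgs17* (0.26 ± 0.10, adjusted p = 0.259) did not overlap between the injections in wild-type accumbens, in opposite directions, and did not pass. *Rgs8* (-0.29 ± 0.13) and *Rgs2* (-0.24 ± 0.14) overlapped, and neither they nor *Rgs7* (0.07), *Rgs10* (-0.16) and *Rgs16* (0.32) passed. The genotypes were compared directly through the interaction of genotype and morphine, in which 0 of 10 genes passed, as did 0% of all 15786 genes. At an unadjusted p under 0.05 there were 916 genes, 1 of them among the 10, *Rgs2*, whose log2 fold change was -0.24 in wild-type and 0.14 in Vdr-/- mice, a difference of 0.38 ± 0.16 (adjusted p = 0.828). edgeR and DESeq2 also called 0 of 10. The 5 calls in Vdr-/- against 0 in wild-type accumbens therefore do not show a difference between the genotypes. For *Rgs9* the interval of that difference was -0.51 to 0.36, and for *Rgs4* it was -0.15 to 0.46. For *Rgs7*, *Rgs8*, *Rgs10*, *Rgs14*, *Rgs16*, *Rgs17* and *Rgs20* the differences were -0.03, 0.02, 0.19, 0.16, -0.07, -0.18 and 0.14.

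Markers of several cell types moved with injection in the accumbens. The sum of the medium spiny neuron markers was 6825 to 7829 CPM after PBS and 4348 to 5352 CPM after morphine in wild-type mice, and 5838 to 6912 against 3851 to 4403 CPM in Vdr-/- mice. In Vdr-/- mice 12 of 12 markers were lower past the threshold (median log2 fold change -0.62), and in wild-type mice 5 of 12 (median -0.67), none of the markers being at 0. Past the threshold in Vdr-/- mice, 6 of 10 microglia and 6 of 10 oligodendrocyte markers were lower, and 6 of 10 astrocyte, 3 of 8 hippocampus and 3 of 10 mural cell markers and 8 of 12 immediate early genes were higher. The median over the 10 RGS genes was -0.11 in Vdr-/- and -0.26 in wild-type mice, with a median of all genes within 0.01 of 0. The part of these marker changes in the RGS values was not tested.

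Among the R7 partners *Gnb5* (-0.25 ± 0.05, adjusted p = 0.00385), *Rgs7bp* (-0.24 ± 0.05, adjusted p = 0.0109) and *Gpr158* (-0.29 ± 0.05, adjusted p = 0.00328) were lower after morphine in Vdr-/- accumbens. *Gpr179*, a relative of *Gpr158*, was higher (1.33 ± 0.36, adjusted p = 0.0236). Of 7 other RGS genes tested there, *Rgs11* (-0.45 ± 0.06, adjusted p = 0.000804) and *Rgs12* (-0.21 ± 0.06, adjusted p = 0.028) fell and *Rgs5*, a pericyte gene, rose (0.37 ± 0.08, adjusted p = 0.0103), all 3 named after their values were seen. Of 16 Gi-coupled receptor genes, 3 rose and 6 fell, including the kappa opioid receptor *Oprk1* (-0.69 ± 0.09, adjusted p = 0.000768) and the dopamine receptor *Drd2* (-0.59 ± 0.08, adjusted p = 0.00075). Of 12 G alpha genes 3 rose and 2 fell, and of 12 G beta and gamma genes 3 rose and 2 fell. In wild-type accumbens *Gnb5* had a log2 fold change of -0.41 ± 0.08 (adjusted p = 0.0804), and 1 gene of these lists passed, *Drd2* (-0.84 ± 0.10, adjusted p = 0.0257).

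Genes whose levels ran most like those of the lowered genes over the 12 accumbens libraries were listed as a description, since all of these libraries share the same groups and marker changes. For *Rgs9* they were *Pde10a*, a phosphodiesterase and medium spiny neuron marker (Pearson r = 0.965), *Gabra4* (0.963) and *Gm38413* (0.963). For *Rgs4* they were *Syndig1l* (0.962), *Rragd* (0.96) and *Nexn* (0.955). *Rgs14* ran closest to *Camkv* (0.963), *Coro7* (0.963) and *Gas7* (0.96), *Rgs8* to *Snx25* (0.953), *Pde8b* (0.939) and *Urod* (0.928), and *Rgs20* to *Cacng4* (0.964), *Raly* (0.952) and *Phgdh* (0.942).

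In the VTA of wild-type mice *Rgs4* and *Rgs14* were higher after morphine, 2 of 10 genes where 3.65% of all genes passed. That share is itself unstable, since leaving out 1 library moved the count over all genes from 591 to between 0 and 2817. The deposited table holds 3 morphine and 2 PBS libraries, so PBS mouse 3 did not enter this comparison. *Rgs4* was at 88.6 and 77.8 CPM after PBS and 153, 200.4 and 173 CPM after morphine, with PBS mouse 3 at 83.0 CPM. All morphine libraries lay above all 3 PBS libraries, and the log2 fold change was 1.04 ± 0.13 (SE; limma, adjusted p = 0.0179). *Rgs14* was at 1.01 and 1.59 CPM after PBS (3.01 CPM in PBS mouse 3) and at 4.65, 4.26 and 4.11 CPM after morphine, a log2 fold change of 1.70 ± 0.24 (adjusted p = 0.0214). Both calls were lost without morphine mouse 1.2 or either PBS mouse, the adjusted p of *Rgs4* then lying between 0.0953 and 0.17 while its log2 fold change stayed between 0.94 and 1.13. A PBS mouse left alone is assumed to vary like the morphine group. With all 12 VTA libraries in the fit, PBS mouse 3 included, *Rgs14* had a log2 fold change of 1.31 (adjusted p = 0.0972).

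*Rgs16* was at 8.20 and 10.2 CPM after PBS (9.94 CPM in PBS mouse 3) and 16.1, 55.0 and 31.1 CPM after morphine in wild-type VTA. The groups did not overlap, but the morphine libraries differed widely among themselves, and the log2 fold change of 1.68 ± 0.47 had an adjusted p of 0.0975. Without morphine mouse 1.1, the highest library, it was 1.24 (adjusted p = 0.0356), and with all 12 VTA libraries 1.66 (adjusted p = 0.0399). *Rgs9* was at 23.7 and 24.2 CPM after PBS and 55.6, 30.3 and 46.0 CPM after morphine (0.80 ± 0.22, adjusted p = 0.0937), without overlap. Without morphine mouse 1.1 it was 1.03 (adjusted p = 0.00132), and DESeq2 called *Rgs9* with all 5 libraries (adjusted p = 0.00524), as did limma with all 12 VTA libraries (0.88, adjusted p = 0.00503). *Rgs7* was at 49.4 and 54.7 CPM after PBS and 61.0, 64.7 and 66.4 CPM after morphine (0.27 ± 0.08, adjusted p = 0.12), and passed with all 12 VTA libraries (0.28, adjusted p = 0.0249). *Rgs20* (-0.21 ± 0.09, adjusted p = 0.223) was lower in each morphine library than in the 2 PBS libraries of the table, but PBS mouse 3, at 14.5 CPM, was below all 3 morphine libraries. *Rgs2* (0.24), *Rgs8* (0.06), *Rgs10* (-0.05) and *Rgs17* (0.16) overlapped and did not pass.

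In the VTA of Vdr-/- mice 1 of 10 genes passed, *Rgs9*, where 10% of all genes did (1639 genes, and 0 to 2272 with 1 library left out). It was at 24.4 and 28.4 CPM after PBS in mice 7 and 9, the 2 PBS libraries of the table, and at 35.7, 38.6 and 39.7 CPM after morphine. PBS mouse 8, absent from that table, had 24.1 CPM, so each morphine library lay above each of the 3 PBS libraries. The log2 fold change was 0.53 ± 0.08 (limma, adjusted p = 0.0164). The call was lost without morphine mouse 2.2 (0.49, adjusted p = 0.0668) or PBS mouse 7 (0.42, adjusted p = 0.134), and with all 12 VTA libraries, PBS mouse 8 included (0.57, adjusted p = 0.0502). *Rgs2* was at 33.2 and 33.3 CPM after PBS and 38.9, 40.0 and 38.1 CPM after morphine (0.22 ± 0.06, adjusted p = 0.0507), passing in edgeR (adjusted p = 0.0458).

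*Rgs4* was at 78.0 and 145 CPM after PBS in Vdr-/- mice 7 and 9 and at 162, 137 and 129.8 CPM after morphine (0.41 ± 0.23, adjusted p = 0.27). PBS mouse 9 lay above 2 of the 3 morphine libraries. Without PBS mouse 9 the log2 fold change was 0.85 (adjusted p = 0.0318), resting on 1 PBS library whose spread is assumed to equal that of the morphine group. *Rgs16* was at 10.1 and 27.2 CPM in the same PBS mice and at 26.0, 14.3 and 12.7 CPM after morphine (0.01 ± 0.43). *Rgs14*, on few reads, had a log2 fold change of 1.40 ± 0.47 (adjusted p = 0.0967), and PBS mouse 8, outside that table, was at 5.47 CPM, within the morphine values of 2.96 to 6.98 CPM. *Rgs7* (0.18), *Rgs8* (-0.14), *Rgs10* (-0.07), *Rgs17* (-0.04) and *Rgs20* (0.01) had log2 fold changes with adjusted p of 0.206 or more. The interaction of genotype and morphine in the VTA passed for 0 of 10 genes and for 0% of all genes tested. Among the 10, *Rgs4* alone had an unadjusted p under 0.05 there (-0.57 ± 0.26, adjusted p = 0.465), of 1739 such genes in all. The other differences were -0.07 for *Rgs2*, -0.12 for *Rgs7*, -0.16 for *Rgs8*, -0.31 for *Rgs9*, -0.05 for *Rgs10*, -0.45 for *Rgs14*, -1.21 for *Rgs16*, -0.22 for *Rgs17* and 0.20 for *Rgs20*. edgeR and DESeq2 called 0 of the 10 genes, while DESeq2 called 48 genes in all.

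Marker levels differed between the VTA libraries along with these values. The sum of 10 dopamine neuron markers was 2797 to 3456 CPM after PBS and 278.5 to 733.6 CPM after morphine in wild-type mice, with 8 of 10 markers lower past the threshold (median log2 fold change -2.98). In Vdr-/- mice the sums were 1662, 2685 and 688 CPM in PBS mice 7, 8 and 9 and 764 to 1461 CPM after morphine. They overlapped through PBS mouse 9 alone. Past the threshold 1 of 10 markers was higher and 0 were lower in Vdr-/- mice. These marker tests lack wild-type PBS mouse 3 and Vdr-/- PBS mouse 8, which the sums include. Oligodendrocyte marker sums were lower after morphine in both genotypes, at 6484 to 10680 against 12620 to 13740 CPM in wild-type and 8478 to 9397 against 12520 to 13120 CPM in Vdr-/- mice. Thalamus marker sums were highest in wild-type morphine mouse 1.1 (1635 CPM) and Vdr-/- PBS mouse 9 (1222 CPM), the libraries with the highest *Rgs16* of their groups. *Ntng1*, a thalamus marker, was among the 3 genes most like *Rgs16* over the 12 VTA libraries (Pearson r = 0.977), beside *Zdhhc22* (0.987) and *Scube2* (0.973). The part of the marker differences in the RGS values was not tested.

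**Figure D4:**
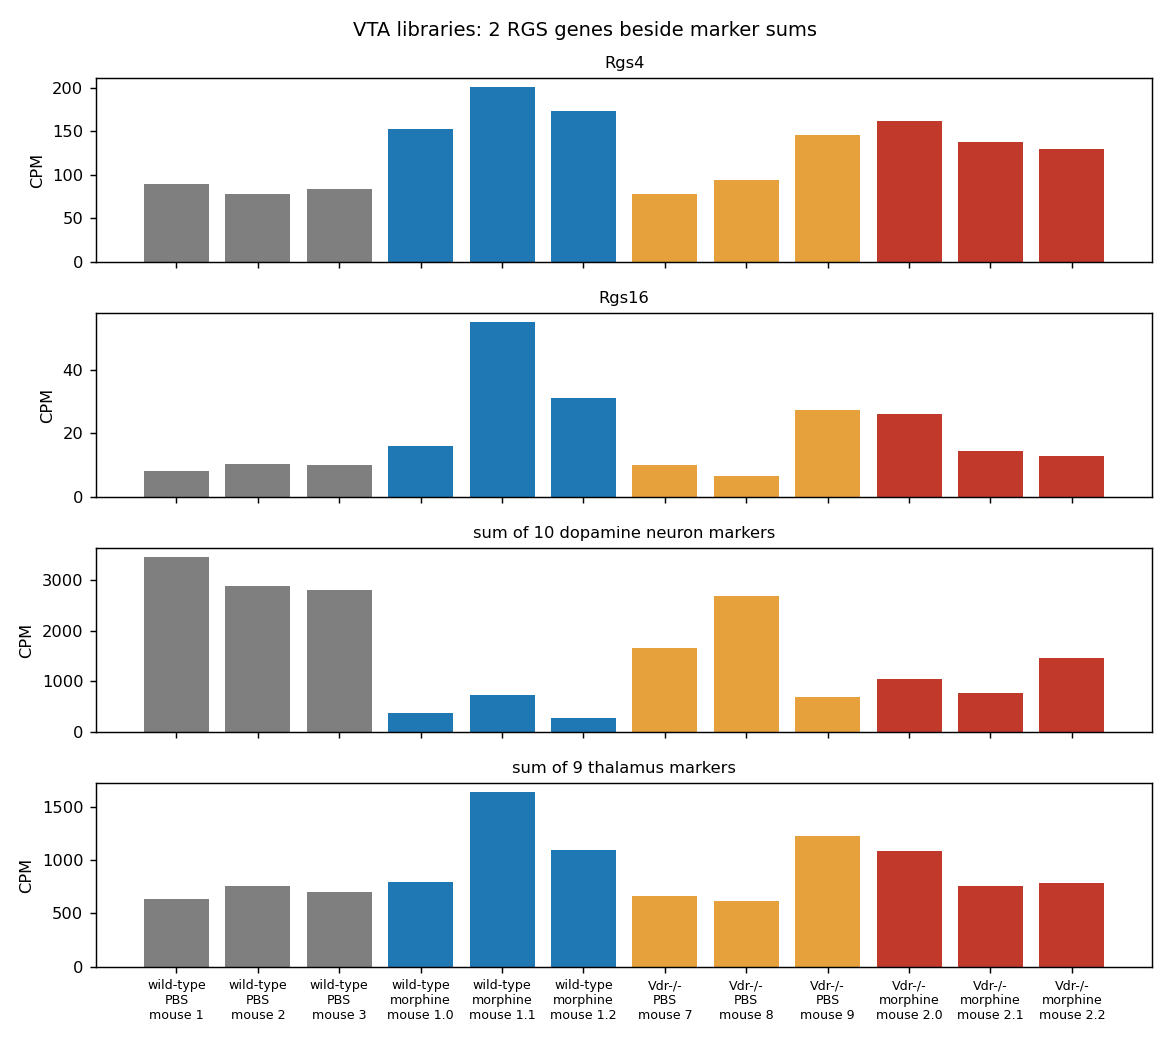
CPM in each of the 12 VTA libraries (bars from 0, one bar a library, colored by group) for *Rgs4*, *Rgs16*, the sum of 10 dopamine neuron markers and the sum of 9 thalamus markers. The bars of *Rgs16* and of the thalamus markers are highest in wild-type morphine mouse 1.1, at 55.0 and 1635 CPM, while the dopamine neuron sum of all wild-type morphine mice is below 734 CPM.

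Over the 12 VTA libraries *Rgs4* ran most like *Tpd52l1* (Pearson r = 0.957), *Cntnap5c* (0.956) and *Kcnj9* (0.956), *Rgs9* like *Ahi1* (0.983), *Prkacb* (0.981) and *Letm2* (0.979), and *Rgs14* like *Necab2* (0.962), *Celf2* (0.961) and *Sec24d* (0.96). None of these was among the 3 genes closest to the same RGS gene in the accumbens. *Gnb5* (-0.03 ± 0.06, adjusted p = 0.817), *Rgs7bp* (0.13 ± 0.28) and *Gpr158* (-0.42 ± 0.12, adjusted p = 0.101) did not pass after morphine in wild-type VTA. Of 7 other RGS genes tested there 1 passed, *Rgs6*, another member of the R7 subfamily (-0.65 ± 0.11, adjusted p = 0.03). Of 16 Gi-coupled receptor genes tested there 1 was higher and 1 lower, where 3.65% of all genes passed. The mu opioid receptor *Oprm1* was higher (0.58 ± 0.11, adjusted p = 0.0402) and *Drd2* lower (-1.77 ± 0.18, adjusted p = 0.00996). With 1 library left out, the calls over all genes in this comparison ranged from 0 to 2817. In Vdr-/- VTA *Gnb5* (-0.01 ± 0.05), *Rgs7bp* (-0.12 ± 0.14) and *Gpr158* (0.15 ± 0.08) did not pass either, and *Gpr179* was higher (1.06 ± 0.12, adjusted p = 0.00721). Of 16 Gi-coupled receptor genes in Vdr-/- VTA 2 were higher and 1 lower. Of 12 G beta and gamma genes 2 were higher and 2 lower, where 10% of all genes passed.

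The effect of morphine was then compared between the regions, over 24 libraries scaled together and within each genotype. In wild-type mice 3 of 10 genes differed, where 7.53% of all genes did, each with a lower effect in the accumbens than in the VTA. The difference for *Rgs4* was -1.68 ± 0.22 (limma, adjusted p = 0.000213), with morphine libraries all lower than PBS libraries in the accumbens and all higher in the VTA. For *Rgs9* it was -1.36 ± 0.22 (adjusted p = 0.00135) and for *Rgs2* -0.55 ± 0.16 (adjusted p = 0.0379). *Rgs14* had a difference of -1.85 ± 0.56 with an adjusted p of 0.0502, and both edgeR (adjusted p = 0.0257) and DESeq2 (0.0339) called it. In Vdr-/- mice 1 of 10 differed, *Rgs9* (-1.11 ± 0.22, adjusted p = 0.0252), where 0.576% of all genes did. *Rgs4* had -0.93 ± 0.22 (adjusted p = 0.0598) and passed in DESeq2 (adjusted p = 0.0125) and with the mouse number as a replicate block (adjusted p = 0.0429). Whether these differences between the regions themselves differ between the genotypes was not tested.

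The calls of *Rgs2* in wild-type and *Rgs9* in Vdr-/- mice depended on single libraries. *Rgs2* lost its call without each of 7 libraries in turn and without the filter on low values (adjusted p = 0.0587), the largest adjusted p being 0.0978 without VTA morphine mouse 1.0. *Rgs9* in Vdr-/- mice lost its call without each of 7 libraries in turn, with adjusted p up to 0.0855 and differences from -1.13 to -1.07. The PBS mice with low dopamine neuron or high thalamus markers in the VTA enter this comparison: without Vdr-/- PBS mouse 9, the difference of *Rgs4* in Vdr-/- mice was -1.18 (adjusted p = 0.00415). *Rgs7*, *Rgs8*, *Rgs10*, *Rgs16*, *Rgs17* and *Rgs20* passed in neither genotype, with differences of -0.23, -0.39, -0.16, -1.37, -0.04 and -0.33 in wild-type mice and -0.12, -0.20, 0.10, -0.21, 0.01 and -0.38 in Vdr-/- mice. In Vdr-/- mice *Rgs2* (-0.08) and *Rgs14* (-1.22) did not pass either.

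**Figure D5:**
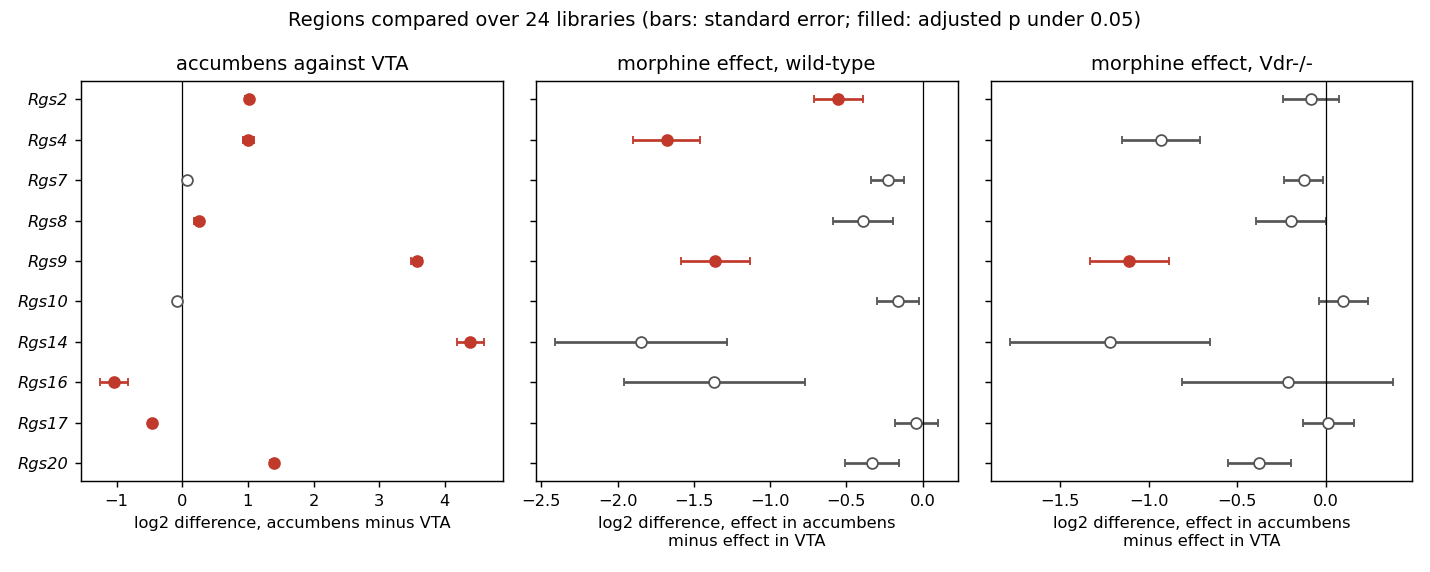
Log2 difference between nucleus accumbens and VTA (left panel) and the morphine effect in the accumbens minus that in the VTA for wild-type (middle) and Vdr-/- mice (right), with the standard error from limma over 24 libraries. Filled points have an adjusted p under 0.05. *Rgs14* and *Rgs9* lie farthest right in the left panel, at 4.39 and 3.57, and *Rgs4* and *Rgs9* are the filled points farthest left in the middle panel.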

How the data were processed

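Libraries of mRNA were made from mouse brain micropunches with a directional kit and sequenced as 101-bp paired reads. Per the submitters' processing notes and the study's methods, the authors called bases with CASAVA 1.8, trimmed adapters with Trimmomatic 0.36, mapped reads with STAR 2.4.2a to GRCm38 and counted reads per GENCODE gene. The strand setting of the count is not stated. They deposited 8 tables of signal (normalized counts), 1 for each pair of groups compared. Multiplying a column by its DESeq2 size factor gave whole reads for 100% of values (tolerance 0.01), and these recovered reads were used where tables were joined. Both VTA morphine tables contain 3 morphine and 2 PBS libraries, where the design had assumed 3 of each.

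limma 3.58.1 (trend, R 4.3.3) was run two-sided on log2(value + 1) over all genes of a table with a mean of at least 10. P-values were adjusted by Benjamini-Hochberg and called under 0.05. Fold changes are on that scale, which understates low genes. Interactions used the 12 recovered libraries of a region and region contrasts all 24, scaled together by median of ratios. Alternatives were a pseudocount of 5, no filter, edgeR 4.0.16, DESeq2 1.42.0, all 12 libraries of a region, each library left out, and a block on mouse number, which the labels repeat in both regions. CPM and RPKM were computed from recovered reads, RPKM over exon length. The share of all genes without overlap between groups was not counted, so non-overlap only describes the libraries of a gene. The labels do not say that libraries of a group came from separate litters or days, so p-values measure the spread between these mice. The test script was checked on simulated data. Python 3.11.15, numpy 2.4.6, pandas 2.3.3 and matplotlib 3.10.9 were used.

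The 10 genes and the lists were chosen with earlier results of these data known. All 10 genes are given in every comparison. Of the lists of other RGS genes, partners, G protein subunits and Gi-coupled receptors, counts are given, with up to 6 called genes of largest change per comparison and *Gnb5*, *Rgs7bp* and *Gpr158* always. For genes called in a region, the 3 most similar genes (Pearson r of log2 values over 12 libraries, mean at least 50) are named. The promoter search covered both strands for the full cAMP response element TGACGTCA, its core TGACG, the AP-1 motif TGANTCA and the TATA box TATAAA. No protein sequences were used here.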

Additional observations from a re-analysis of the deposited data

Results flagged for a closer look

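The effect of morphine differed between the regions, by the test of that difference, in 4 cases among these genes. Of 10 genes, 3 passed in wild-type mice, where 7.53% of all genes did, and 1 in Vdr-/- mice, where 0.576% did. The calls of *Rgs2* in wild-type and *Rgs9* in Vdr-/- mice depended on single libraries. In wild-type mice the effect in the nucleus accumbens minus that in the VTA was -1.68 for *Rgs4*, -1.36 for *Rgs9* and -0.55 for *Rgs2* on the log2 scale. In Vdr-/- mice it was -1.11 for *Rgs9*. In both genotypes oligodendrocyte markers in the VTA and medium spiny neuron markers in the accumbens moved with injection. Dopamine neuron markers in the VTA did so in wild-type mice, while in Vdr-/- mice their sums overlapped through PBS mouse 9 alone. That mouse was at 688 CPM and PBS mice 7 and 8 at 1662 and 2685 CPM, against 764 to 1461 CPM after morphine. The part of these markers was not tested.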

How the results depend on the processing

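No direction of a called value reversed. The number of these 10 genes called depended on the fit as follows. With all 12 libraries of a region, calls of morphine in the accumbens went from 0 to 2 in wild-type and from 5 to 2 in Vdr-/- mice (*Rgs9* and *Rgs4* remaining), and in the VTA from 2 to 4 in wild-type and from 1 to 0 in Vdr-/- mice. DESeq2 gave 2 calls for morphine in wild-type accumbens, 4 in Vdr-/- accumbens and 3 in wild-type VTA. For the region difference of morphine DESeq2 gave 4 in wild-type and 2 in Vdr-/- mice. edgeR gave 4 for that difference in wild-type mice and 2 for morphine in Vdr-/- VTA. With 1 library left out, calls ranged from 0 to 1 for genotype after PBS in the accumbens, from 0 to 3 and 4 to 5 for morphine (wild-type and Vdr-/-) in the accumbens, from 0 to 4 and 0 to 3 for morphine (wild-type and Vdr-/-) in the VTA, from 8 to 9 between regions, and from 2 to 4 and 0 to 2 for the region difference of morphine (wild-type and Vdr-/-). They stayed at 0 in the other genotype comparisons and both interactions. The cause was not tested. Over all settings other than a left-out library, 608 of 630 values of single genes stayed on the same side of the threshold. Direction was compared only where a value was called in either fit.

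Over all genes, DESeq2 called 63 against 11 by limma for genotype after PBS and 51 against 30 after morphine in the accumbens, 290 against 64 and 95 against 10 for the same comparisons in the VTA, 493 against 128 for morphine in wild-type accumbens, 1358 against 591 in wild-type VTA, and 276 against 93 for the region difference of morphine in Vdr-/- mice, where no filter gave 61. For the VTA interaction DESeq2 called 48 and limma 0. Fits with all 12 libraries of a region called 37 and 13 genes for genotype in the accumbens (PBS and morphine), 1058 and 1099 for morphine there (wild-type and Vdr-/-), 29 for genotype after morphine in the VTA, and 3108 for morphine in wild-type VTA. With 1 library left out the genes called for genotype ranged from 2 to 28 (PBS) and 14 to 47 (morphine) in the accumbens and from 13 to 370 and 5 to 49 in the VTA. They ranged from 0 to 627 and 1566 to 3133 for morphine (wild-type and Vdr-/-) in the accumbens, from 0 to 2817 and 0 to 2272 in the VTA, from 614 to 1796 and 13 to 220 for the region difference of morphine, and from 0 to 51 for the VTA interaction.

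The same mouse numbers in both regions gave a paired check: the deviations of same-numbered libraries correlated between -0.078 and 0.165, above 0.1 in 5 of 12 mice, and 8 of 12 correlated best with their own number. With the replicate block on mouse number the region difference of morphine in Vdr-/- mice called 2 genes, *Rgs4* joining (adjusted p = 0.0429), and no other call changed.

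*Rgs14* in the VTA rested on 19 to 123 reads per library, which limits its precision.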
